A study of Mus musculus with 22 samples.

Results

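Cytochrome P450 genes encode haem enzymes that oxidise drugs, carcinogens, fatty acids, steroids and vitamins. The members described here are the 98 probe sets of the array whose gene symbol begins with Cyp and a digit, Cyp7a1 left out, among 22203 probe sets that represent 19505 named genes. Each member had 1 probe set. RefSeq lists 94 of them as protein coding and 4 as transcribed pseudogenes (Cyp2d13, Cyp2d37-ps, Cyp4b1-ps2 and Cyp4f41-ps). Levels were measured in 22 colon tumours, induced by the carcinogen azoxymethane, of male FVB/N mice on 4 regimens. Controls (6 mice) were fed low-fat chow in which fat gave 10% of the energy, and in the feed of the 5 obese mice it gave 60%. Another 6 obese mice, on the same 60% feed, received sulindac, an inhibitor of the cyclooxygenases, at a dose and duration not given in the sources used here, and the 5 formerly obese mice had been taken off the high-fat diet and put on a low-fat one. Sulindac was withheld from the other 3 groups. Every group carries azoxymethane tumours, and normal colon was not analysed here. The labels do not say whether a sample is a single tumour or several tumours of a mouse.

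P450 enzymes in the endoplasmic reticulum receive electrons from P450 oxidoreductase and cytochrome b5, and those in mitochondria from ferredoxin. Families 1 to 3 mainly oxidise foreign compounds, and family 4 hydroxylates fatty acids and their eicosanoid products. Most of the remaining families take a step in the synthesis or breakdown of cholesterol, bile acids, steroid hormones, vitamin D or retinoic acid. Cyp20a1 is grouped here as an orphan, without such a step. In the gut, P450 enzymes sit mostly in the differentiated epithelial cells of the surface, and nuclear receptors for drugs, bile acids and aryl hydrocarbons regulate many of their genes. Azoxymethane itself needs oxidation by a P450, chiefly Cyp2e1, before it damages DNA.

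Array medians lay between 6.67 and 6.83 on a scale read as log2, so the arrays had been brought to a common scale before deposit. Epcam, which marks epithelium, was between 16.67 and 17.43 in all 22 tumours, Muc2, the mucin of goblet cells, between 14.27 and 18.97, and Axin2, a WNT target that is high in such tumours, between 13.81 and 15.74. Formerly obese Mouse_134 stood apart. Its absorptive colonocyte score, the mean level of 19 marker genes of mature surface cells, was 13.59 against 8.84 to 11.78 in the other 21 tumours, and its smooth muscle score was 11.19 against 8.46 to 10.02. Differences that use the formerly obese group are therefore given with and without this tumour. The 3 main comparisons share the 5 obese arrays, so a low or high obese group enters all of them, and precision is limited by having only 5 or 6 arrays in a group.

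Most P450 genes gave weak signals in these tumours. Of the 98 members, 46 (46.9%) lay in the lowest 25% of all probe set means, 32 in the next 25%, 15 in the third and 5 in the highest. Those 5 were Cyp51, the demethylase of cholesterol synthesis, with a mean of 13.52 over 22 tumours, Cyp4f16 at 10.92, Cyp27a1, a mitochondrial sterol hydroxylase of bile acid and oxysterol synthesis, at 10.82, Cyp39a1, an oxysterol hydroxylase, at 10.72, and Cyp2d34 at 10.57. Probe sets bind with different strength, and the deposited values hold no detection call, so these positions give no order of transcript amounts and do not show which weak genes were expressed.

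By family, 18 of the 47 members of family 2 lay in the lowest 25%, as did 5 of 9 in family 3 and 11 of 21 in family 4. All 3 retinoic acid hydroxylases (Cyp26a1, Cyp26b1 and Cyp26c1) were there, as were 2 of 3 members of vitamin D metabolism and 3 of 5 of steroid hormone synthesis. Cyp2e1 had a mean of 4.48 over the 22 tumours and Cyp1a1, the classic target of the aryl hydrocarbon receptor, a mean of 4.07, both in the lowest 25%.

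Some P450 genes differed widely between tumours of the same regimen, while the typical member did not. The median within-group SD was 0.339 over the members and 0.348 over all probe sets. Without Mouse_134 it was 0.323 and 0.345. The within-group SD of 20 of the 98 members lay in the top 10% of all probe sets, which is 20.4% of members against 10% of probe sets by definition. Without Mouse_134 it was 17 members (17.3%). Cyp4f40, an uncharacterised member of family 4, ran from 5.52 in control Mouse_26 to 11.21 in obese sulindac Mouse_129, and Cyp21a1, the steroid hydroxylase known from the adrenal cortex, ran from 6.08 in obese sulindac Mouse_X to 10.80 in control Mouse_30. Stable members existed too: Cyp4f16 stayed between 10.28 and 11.35, and Cyp51 between 12.77 and 14.32.

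Mouse_134 held the highest level of the 22 tumours in 15 members (15.3%), against 6.98% of all probe sets. In 7 members it exceeded the next tumour by over 1 log2 unit, which was true of 0.721% of all probe sets, and the gap was over 2 units in all 7. These were Cyp2c55, Cyp2c65, Cyp2c66, Cyp2d26, Cyp4b1, Cyp4f14 and Cyp3a13. Cyp2c66 is named here after its values were seen. Each of the 7 genes encodes a family 2, 3 or 4 enzyme. Most members belong to these families, with 47 in family 2, 9 in family 3 and 21 in family 4. Family therefore does not set the 7 genes apart from the list.

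The stretches of 250 bases before the annotated start of 5 of these genes are shown to let their upstream letters be compared, from RefSeq on GRCm38.p6, written 5′ to 3′ in the direction of the gene. Such a window was held for 73 of the 98 members. Capitals mark exact matches to 3 motifs searched on both strands. TATAAA has the letters of a TATA box and is marked wherever it lies in the window. CAAAGTCC is of the type bound by HNF4, and GTTAAT of the type bound by HNF1.

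Cyp2c55 (chr19:39006769-39007018, plus strand): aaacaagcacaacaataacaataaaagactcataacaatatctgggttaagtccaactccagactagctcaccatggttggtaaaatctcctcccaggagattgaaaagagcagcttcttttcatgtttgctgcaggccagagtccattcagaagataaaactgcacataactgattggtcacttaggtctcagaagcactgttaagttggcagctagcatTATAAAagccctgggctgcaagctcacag

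Cyp2c65 (chr19:39060756-39061005, plus strand): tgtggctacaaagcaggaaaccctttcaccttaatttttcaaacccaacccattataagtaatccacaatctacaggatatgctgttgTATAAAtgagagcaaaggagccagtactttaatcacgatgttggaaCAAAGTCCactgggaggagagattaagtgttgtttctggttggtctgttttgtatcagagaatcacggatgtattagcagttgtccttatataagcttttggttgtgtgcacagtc

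Cyp2c66 (chr19:39113648-39113897, plus strand): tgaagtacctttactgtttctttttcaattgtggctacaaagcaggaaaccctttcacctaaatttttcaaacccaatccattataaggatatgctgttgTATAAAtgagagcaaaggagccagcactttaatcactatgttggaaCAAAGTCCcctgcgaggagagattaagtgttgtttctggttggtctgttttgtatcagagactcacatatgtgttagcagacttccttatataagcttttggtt

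Cyp2d26 (chr15:82794246-82794495, minus strand): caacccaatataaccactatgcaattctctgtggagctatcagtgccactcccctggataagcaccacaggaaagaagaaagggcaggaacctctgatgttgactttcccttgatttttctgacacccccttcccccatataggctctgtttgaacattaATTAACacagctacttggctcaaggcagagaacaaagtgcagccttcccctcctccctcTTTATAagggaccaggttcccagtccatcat

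Cyp4b1 (chr4:115647722-115647971, minus strand): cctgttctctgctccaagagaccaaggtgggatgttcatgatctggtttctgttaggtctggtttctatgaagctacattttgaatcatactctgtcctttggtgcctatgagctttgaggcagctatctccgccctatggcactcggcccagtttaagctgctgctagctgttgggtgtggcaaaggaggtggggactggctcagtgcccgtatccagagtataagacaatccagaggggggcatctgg

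Cyp2c65 and Cyp2c66, neighbours of Cyp2c55 on chromosome 19, had near-identical upstream letters: 208 of 221 aligned bases (94.1%) were the same. Both windows held CAAAGTCC and, further upstream, TATAAA. The TATAAA lay 162 to 157 bases before the start of Cyp2c65 and 150 to 145 before that of Cyp2c66. At that distance the match need not be a TATA box. The Cyp2c55 window held TATAAA at 29 to 24 bases before the start, and the Cyp2d26 window held it on the opposite strand at 31 to 26 bases, with GTTAAT on the opposite strand at 90 to 85 bases. In the Cyp4b1 window none of the 3 motifs was found. The search took exact letters only, and similar letters lie nearer the start in these windows. They are tatataag in Cyp2c65 and Cyp2c66, tataag in Cyp4b1 and, read forward, TATAag in Cyp2d26. In Cyp2c65, Cyp4b1 and Cyp2d26 they lie about where TATAAA lies in Cyp2c55. The lack of a marked match near the start therefore does not show that a TATA box is missing. TATAAA occurred in 12.4% of all 32851 windows of that length and in the windows of 26 of 73 members (35.6%), CAAAGTCC in 1.2% and 15 members (20.5%), and GTTAAT in 6.43% and 10 members (13.7%). Many members are recent copies of each other and share their upstream letters by descent, and a match is a description of the letters, not of a bound site.

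Cyp2c55, a colonic enzyme that oxidises arachidonic acid, was at 15.77, 4.96, 7.17, 5.91 and 4.93 in formerly obese Mouse_134, Mouse_140, Mouse_146, Mouse_150 and Mouse_152. It was at 6.07, 4.96, 6.27, 5.48 and 5.25 in the 5 obese mice. Controls ran from 4.91 through a median of 5.67 to 8.76, and obese sulindac tumours from 4.69 through 6.22 to 7.38. A single tumour therefore carried a level 7.01 units above the next, which was that of control Mouse_20, and the other 4 formerly obese tumours lay within the range of the controls. The formerly obese mean exceeded the obese mean by 2.14 ± 1.36 (± standard error) with Mouse_134 and by 0.14 ± 0.65 without it (limma adjusted p = 0.887 and 0.998).

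Cyp2c65, which is known from the intestine, was at 15.20, 5.49, 7.12, 6.22 and 6.43 in the formerly obese tumours in the same order. In obese tumours it was at 5.27, 6.56, 7.08, 8.33 and 5.44, with a control range of 5.44 to 9.17 and an obese sulindac range of 5.15 to 8.17. Here too Mouse_134 was first and control Mouse_20 next, and the sign of the difference between formerly obese and obese tumours turned from 1.56 ± 1.27 to -0.22 ± 0.72 without Mouse_134. Its neighbour Cyp2c66 stood at 10.64 in Mouse_134 and between 5.21 and 6.99 elsewhere. Over all 22 tumours, with group means removed, Cyp2c65 and Cyp2c66 correlated at r = 0.94, and at 0.74 without Mouse_134. Probes of such close copies may read each other's transcripts, so the signals of these genes may not be separate.

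Cyp4b1, a hydroxylase of fatty acids and foreign compounds known from the lung, had the sharpest contrast. It was at 12.06 in Mouse_134 and at 4.62, 4.56, 4.82 and 4.13 in the other formerly obese tumours. The remaining 3 groups ran from 4.0 to 5.02, so that the other 21 tumours spanned 1.02 units. Its difference between formerly obese and obese tumours was 1.54 ± 0.94 with Mouse_134 and 0.03 ± 0.21 without. Cyp4b1-ps2, the pseudogene, was at 5.56 in Mouse_134 and at most 4.84 elsewhere.

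Cyp2d26 was at 13.95 in Mouse_134 and at 5.52, 5.20, 6.95 and 5.46 in the other formerly obese tumours, while the other groups ran from 4.97 to 9.55, control Mouse_20 being highest. Cyp4f14, a hydroxylase that inactivates leukotriene B4, was at 8.83 in Mouse_134 and between 4.34 and 5.25 elsewhere. For Cyp3a13, the family 3 gene of the intestinal epithelium, Mouse_134 was at 10.89 and the others between 5.29 and 7.92. Without Mouse_134 the formerly obese minus obese difference went from 1.21 ± 1.18 to -0.42 ± 0.68 for Cyp2d26 and from 0.71 ± 0.55 to -0.16 ± 0.17 for Cyp4f14, both turning in sign, and from 1.04 ± 0.69 to 0.22 ± 0.50 for Cyp3a13. None of these differences passed the test in either fit.

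Some marker lists were also high in Mouse_134. In Mouse_134, 14 of 19 absorptive colonocyte markers and 9 of 10 smooth muscle markers were at their highest of the 22 tumours, while 4 of 10 goblet markers, 0 of 9 stem cell and WNT target markers and 0 of 9 fibroblast markers were. Of the 15 marker lists, Mouse_134 also had the highest enteroendocrine score (8.82 against at most 8.27) and adipocyte score (5.995 against at most 5.95), and the second highest score of squamous and anal epithelium (8.02). Slc26a3, the chloride exchanger of surface colonocytes, was at 14.30 there and at most 11.96 elsewhere, Car4 at 13.35 and at most 9.86, Des, the desmin of muscle, at 10.39 and at most 7.72. The absorptive colonocyte score ran from 9.16 to 11.78 in control, 8.84 to 11.39 in obese, 10.02 to 11.70 in obese sulindac and 10.32 to 13.59 in formerly obese tumours, and the smooth muscle score from 8.62 to 9.29, 8.64 to 9.41, 8.86 to 10.02 and 8.46 to 11.19. No such marker list is at 0 on this scale, the part of these cells in the 7 genes was not tested, and in whole tumours more cells of a type and more RNA per cell cannot be told apart.

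**Figure D1:**
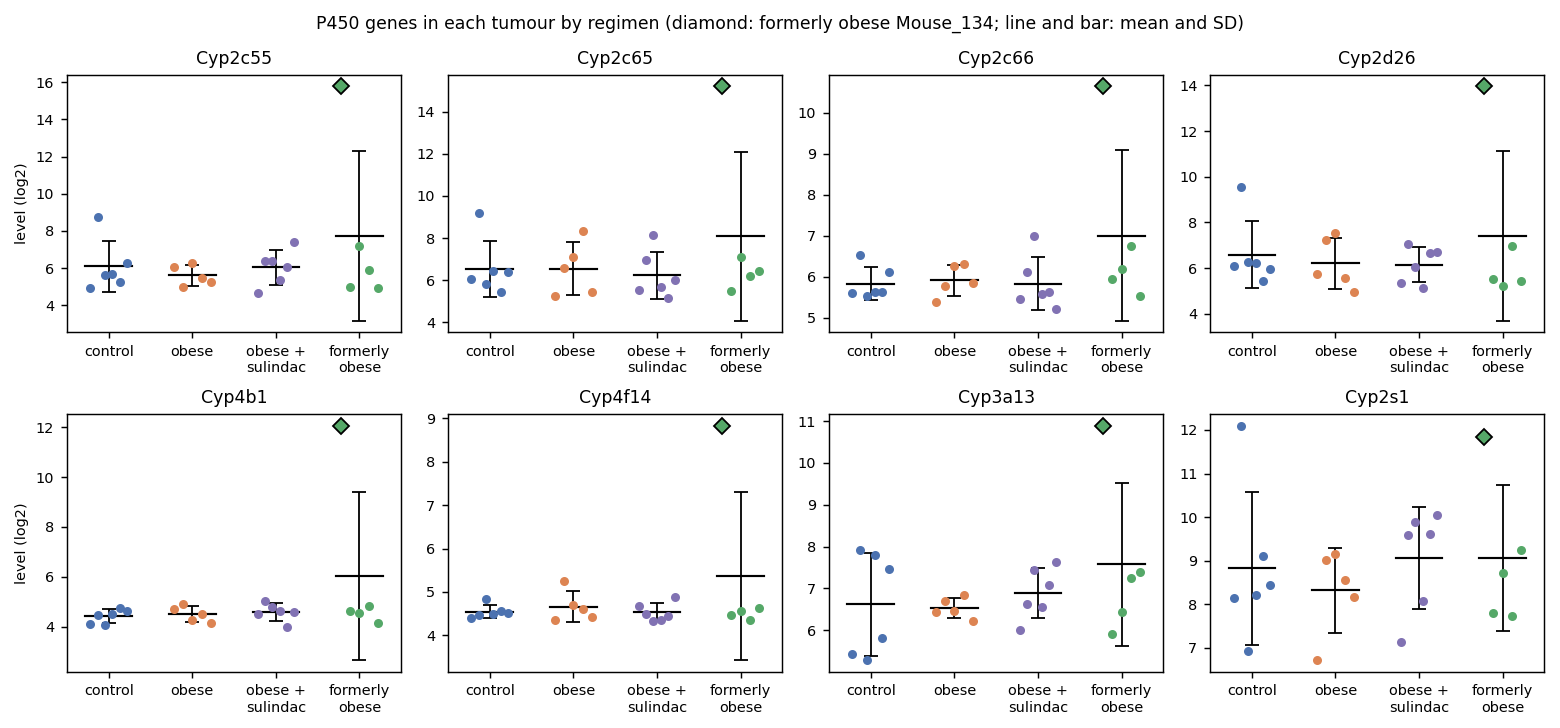
Levels (log2) of 8 P450 genes in each of the 22 tumours by regimen; points are single tumours, the diamond is formerly obese Mouse_134, and the line and bar are the group mean and SD. In 7 panels the diamond lies above every other tumour (15.77 against at most 8.76 for Cyp2c55), and for Cyp2s1 control Mouse_20 at 12.10 lies just above it at 11.84.

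The level of each P450 gene was then set against the absorptive colonocyte score across the 22 tumours, with group means removed from both. By a two-sided permutation test within groups, adjusted by Benjamini-Hochberg over the 22184 probe sets outside the score and called under 0.05, 6 of 98 members (6.12%) were related to the score, against 2.92% of all probe sets tested. The relation was positive for 5 of them (1.96% of probe sets) and negative for 1 (0.96%). Without Mouse_134 it was 3 members against 2.05%, of which 2, Cyp2d34 and Cyp2s1, were shared with the 6. Without the 2 tumours farthest from the median score, Mouse_134 and obese Mouse_96, 1 member was left against 0.383%. With the group means left in, 10 members passed against 3.68%.

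Cyp2d34 gave the relation that passed in each of these sets. Its level was at 7.09, 11.95, 10.82, 11.06 and 9.10 in the 5 obese tumours and at 11.41, 9.0, 10.33, 11.0 and 11.68 in the formerly obese, with control values of 8.44 to 12.57 and obese sulindac values of 9.45 to 12.10. The lowest of the 22, obese Mouse_96, also had the lowest score of 8.84, and the highest, control Mouse_20, had the second highest score of 11.78. Pearson's r was 0.80 (permutation adjusted p = 0.00683) and Spearman's rho 0.80 (permutation p = 9e-05, unadjusted). Pearson's r was 0.89 without Mouse_134 (permutation adjusted p = 0.013) and 0.87 without the 2 farthest tumours (permutation adjusted p = 0.0398).

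Cyp2s1, an epithelial P450 outside the liver that aryl hydrocarbons induce, was at 12.10 in control Mouse_20 and 11.84 in Mouse_134, and at 6.72 to 10.05 in the other 20 tumours. Its r with the score was 0.81 (permutation adjusted p = 0.0106) with a rho of 0.77 (permutation p = 8e-05, unadjusted), 0.73 without Mouse_134 (permutation adjusted p = 0.0296) and 0.69 without the 2 farthest tumours (permutation adjusted p = 0.0897). Cyp2d26 (r = 0.77), Cyp2c65 (0.75) and Cyp4f40 (0.69) also passed with all tumours, with a rho of 0.61, 0.70 and 0.68 (permutation p = 0.00602, 0.00149 and 0.00092, unadjusted). They did not pass without Mouse_134, where r was 0.64, 0.61 and 0.65, nor without the 2 farthest tumours, where r was 0.67, 0.56 and 0.60. The calls of Cyp2s1, Cyp2d26, Cyp2c65 and Cyp4f40 were lost without the 2 farthest tumours, where fewer arrays were tested and few probe sets passed.

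Cyp27a1 was the member related to the score negatively. It was highest in control Mouse_26 at 12.73 and obese sulindac Mouse_X at 12.64, and lowest in Mouse_134 at 9.11 and obese sulindac Mouse_124 at 9.12. Its r was -0.75 (permutation adjusted p = 0.0202) and rho -0.77 (permutation p = 0.00021, unadjusted), with r of -0.72 without Mouse_134 (permutation adjusted p = 0.0587) and -0.68 without the 2 farthest tumours (permutation adjusted p = 0.109). The call was lost in both sets while r moved little. Cyp2d9 passed only without Mouse_134 (r = 0.72, permutation adjusted p = 0.0455, against 0.59 and 0.0811 with all tumours). Cyp2c55 did not pass (r = 0.63, permutation adjusted p = 0.179), and neither did Cyp4b1 (r = 0.63, permutation adjusted p = 0.102), for which r was 0.31 and 0.45 without Mouse_134 and 0.41 and 0.60 without the 2 farthest tumours.

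**Figure D2:**
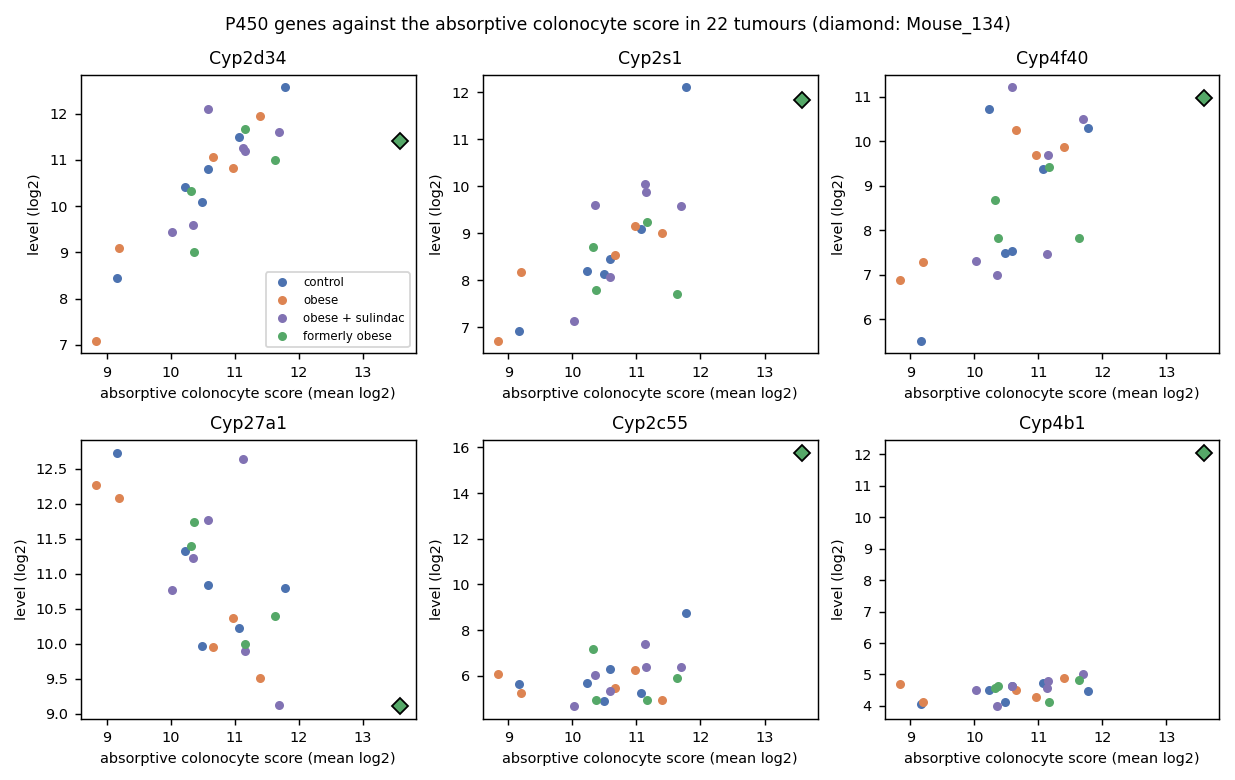
Level (log2) of 6 P450 genes against the absorptive colonocyte score (mean log2 level of 19 markers) in 22 tumours, coloured by regimen, with Mouse_134 as a diamond. Cyp2d34 climbs along the score among the round points (r = 0.89 without Mouse_134, group means removed), Cyp27a1 slopes down, and the diamond lies far above the other points for Cyp2c55 and Cyp4b1.

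Most pairs of P450 genes were weakly correlated across the 22 tumours, with group means removed. Among the 267 pairs of members that belong to the same subfamily and lie on the same chromosome, the median r was 0.053 with Mouse_134 and 0.036 without, against 0.011 and 0.0038 among the other 4486 pairs. An r above 0.5 was found for 15 of the 267 (5.62%) and 168 of the 4486 (3.74%), and for 18 (6.74%) and 162 (3.61%) without Mouse_134. Of the highest pairs, Cyp2d9 and the pseudogene Cyp2d13 correlated at r = 0.88, and at 0.88 without Mouse_134. Cyp2c67 and Cyp2c68 correlated at 0.88 and 0.86, and Cyp2d12 and Cyp2d13 at 0.86 and 0.86. High pairs of genes on different chromosomes were Cyp2c68 and Cyp2f2 at 0.86 and 0.87, Cyp26b1 and Cyp2b10 at 0.78 and 0.80, Cyp2d34 and Cyp4f40 at 0.78 and 0.79, and Cyp2d13 and Cyp2f2 at 0.78 and 0.78. Cyp2f2, Cyp2c67 and Cyp2c68 are named here after their values were seen. Cyp4b1 and Cyp4f14 correlated at 0.96 with Mouse_134 and at 0.06 without it. These values are descriptions of the 22 tumours, and close copies may share probe signal.

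No P450 gene passed the test over all probe sets between obese and control tumours. In limma, 0 of 98 members passed an adjusted p under 0.05, as did 0 of 22203 probe sets, and 4 members were below 0.05 before adjustment, against 4.03% of all probe sets. Of these, 2 lay higher (1.82% of probe sets) and 2 lower (2.21%). The median difference over the members was 0.013. In simulated arrays with normal noise, 100 probe sets were shifted by 1 log2 unit and another 100 by 2 units, all at once. Of these, 59% and 89% were called in this comparison. Many true shifts ease the adjusted cutoff, so these shares may overstate the power for a single gene in the real data. Differences under 1 unit could often pass undetected.

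Cyp39a1, which hydroxylates oxysterols on a route to bile acids, was the member with the largest of these differences upward. It was at 11.25, 11.67, 11.25, 10.66 and 11.16 in obese Mouse_96, Mouse_101, Mouse_107, Mouse_109 and Mouse_113, and ran from 9.82 through a median of 10.34 to 10.66 in controls. Of the 5 obese tumours, 4 lay above every control and the fifth equalled the highest control. The difference was 0.88 ± 0.34 (limma adjusted p = 0.9998, two-sided exact permutation p = 0.00433 for this gene alone, where the smallest possible is 0.00216). Formerly obese tumours were at 10.74, 10.00, 11.12, 10.58 and 9.54, and obese sulindac tumours ran from 10.09 through 10.99 to 12.48.

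Cyp2d9, a testosterone hydroxylase known for its male-specific level in mouse liver, lay lower in obese tumours. Its levels were 6.63, 7.74, 7.51, 6.77 and 6.17 in the obese mice, against 7.24 through a median of 7.68 to 8.95 in controls. The 2 groups overlapped, 3 obese tumours lying below every control. The difference was -0.93 ± 0.37 (limma adjusted p = 0.9998, two-sided exact permutation p = 0.0519).

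Cyp8b1, the sterol hydroxylase that bile acid synthesis needs for cholic acid, was at 4.22, 4.03, 4.08, 4.20 and 4.10 in obese tumours and from 4.23 through 4.47 to 5.05 in controls. The groups did not overlap, which was so for 1 of 98 members and 0.383% of all probe sets, but they came within 0.01 of each other at the bottom of the scale. The difference was -0.39 ± 0.14 (limma adjusted p = 0.9998, two-sided exact permutation p = 0.00433). Cyp2a12 differed by 0.41 ± 0.19, with obese levels of 4.34 to 5.08 and control levels of 3.82 to 4.52. Of the bile acid and cholesterol genes as a list, 3 of 6 lay higher and 3 lower in obese tumours, with 0 passing the adjusted test. Family 4 lay higher in 17 of 21 members with a median difference of 0.12, and family 2 in 20 of 47 with a median of -0.025, against 49.1% of all probe sets higher, with 0 passing in either.

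**Figure D3:**
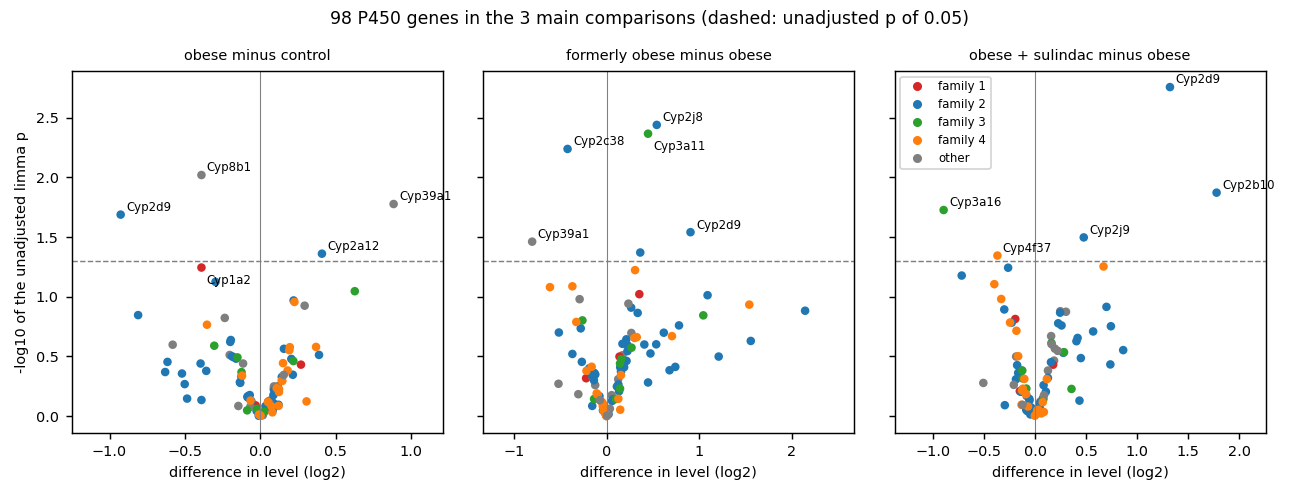
Difference in level (log2, horizontal) and unadjusted limma p (-log10, vertical) of the 98 P450 genes in the 3 main comparisons, coloured by family; the dashed line marks an unadjusted p of 0.05. Between 4 and 6 members lie above the line in each panel, near the share of all probe sets, and Cyp2d9 lies to the left in the first panel and to the right in the others, which share the obese arrays.

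Formerly obese against obese tumours, the comparison that asks what the diet switch does, also gave no P450 call. In limma 0 of 98 members passed, as did 0 of 22203 probe sets, with and without Mouse_134. Before adjustment 6 were below 0.05, against 5.69% of all probe sets, 4 of them higher (2.77% of probe sets) and 2 lower (2.91%). Without Mouse_134 there were 5, against 4.54%, 3 of them higher (2.24%) and 2 lower (2.3%). The median difference over members was 0.089 with Mouse_134 and 0.030 without, with 60 and 53 of 98 members higher, against 50.7% and 51.1% of all probe sets. Family 2 lay higher in 33 of 47 members, and in 27 without Mouse_134. Family 4 lay higher in 9 of 21 members, and in 7 without Mouse_134.

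Cyp2j8, of the Cyp2j group of fatty acid epoxygenases, was at 4.80, 4.79, 5.15, 5.21 and 4.49 in formerly obese Mouse_134, Mouse_140, Mouse_146, Mouse_150 and Mouse_152. In obese mice it was at 4.36, 4.31, 4.45, 4.16 and 4.45. The groups did not overlap, as for 1 of 98 members and 0.878% of all probe sets. The difference was 0.54 ± 0.17 (limma adjusted p = 0.866, two-sided exact permutation p = 0.00794, the smallest that 5 against 5 allows) and 0.56 ± 0.18 without Mouse_134. Controls ran from 4.36 to 4.75 and obese sulindac tumours from 4.14 to 5.12, so the formerly obese tumours overlapped both of these groups.

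Cyp3a11, the main drug-metabolising family 3 enzyme of mouse liver and a target of the pregnane X receptor, was at 5.06, 4.58, 5.12, 4.76 and 4.84 in formerly obese tumours. It was at 4.37, 4.67, 4.37, 4.46 and 4.25 in obese tumours, and at most 4.64 in controls. Of the 5 formerly obese tumours, 4 lay above every obese tumour. The difference was 0.45 ± 0.14 (limma adjusted p = 0.866, two-sided exact permutation p = 0.0159), and 0.40 ± 0.15 without Mouse_134. Both Cyp2j8 and Cyp3a11 lay in the lowest 25% of probe set means, and the level of each spanned under 1.2 units over the 22 tumours.

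Cyp2d9 was at 7.85, 7.26, 7.79, 8.55 and 7.90 in formerly obese tumours, so that 4 of 5 lay above every obese tumour. Its difference was 0.91 ± 0.39 (limma adjusted p = 0.866) and 0.91 ± 0.42 without Mouse_134. Cyp39a1 lay lower by -0.80 ± 0.36, and by -0.89 ± 0.38 without Mouse_134, 3 of the 5 formerly obese values being under the lowest obese one. Cyp2c38, a further fatty acid epoxygenase, was at 4.98, 4.86, 4.28, 4.56 and 5.03 against 5.19, 5.09, 5.39, 5.03 and 5.11, a difference of -0.42 ± 0.14 (-0.48 ± 0.14 without Mouse_134) in which 4 formerly obese values were under the lowest obese one and the fifth equalled it. These differences reuse the obese values of the obese against control comparison, so the opposite signs of Cyp2d9 and Cyp39a1 there and here are not separate observations.

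**Figure D4:**
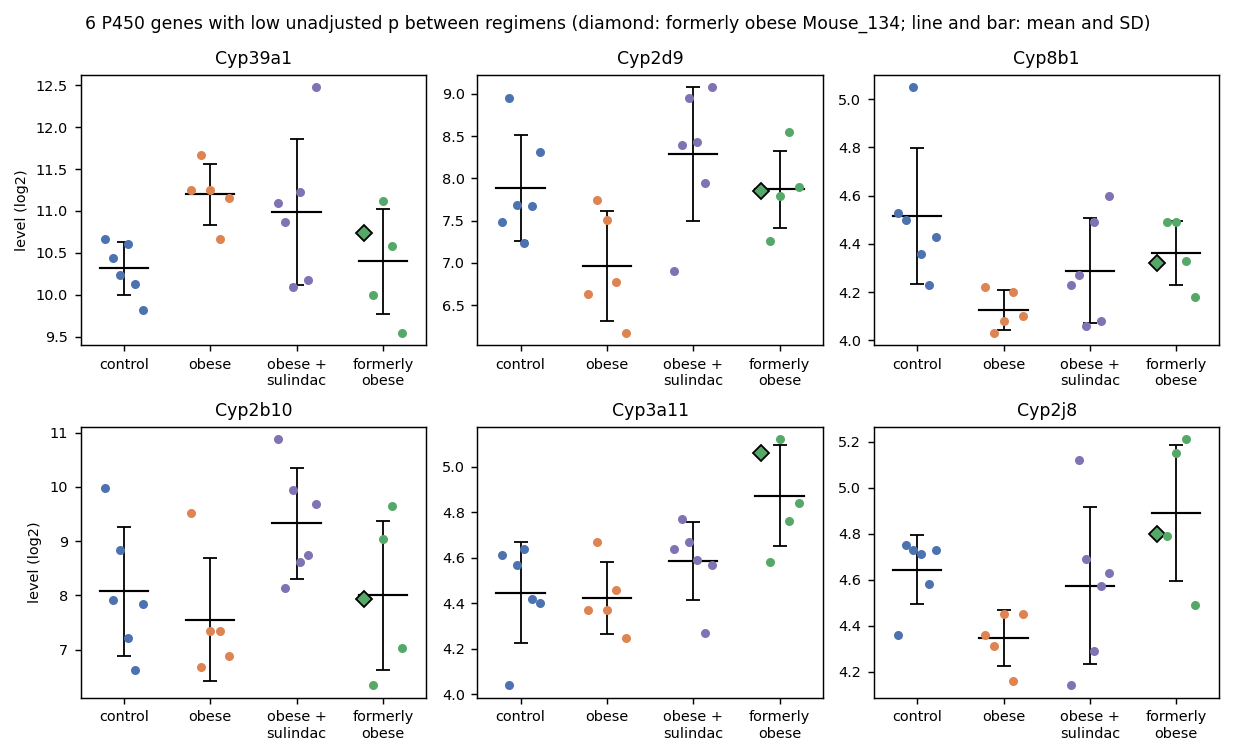
Levels (log2) of 6 P450 genes in each tumour by regimen, with the group mean and SD; the diamond is Mouse_134. Obese tumours sit high for Cyp39a1 (10.66 to 11.67) and low for Cyp2d9 (6.17 to 7.74) and Cyp8b1 (4.03 to 4.22), and the vertical scales differ, Cyp8b1, Cyp3a11 and Cyp2j8 covering little more than 1 unit.

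**Figure D5:**
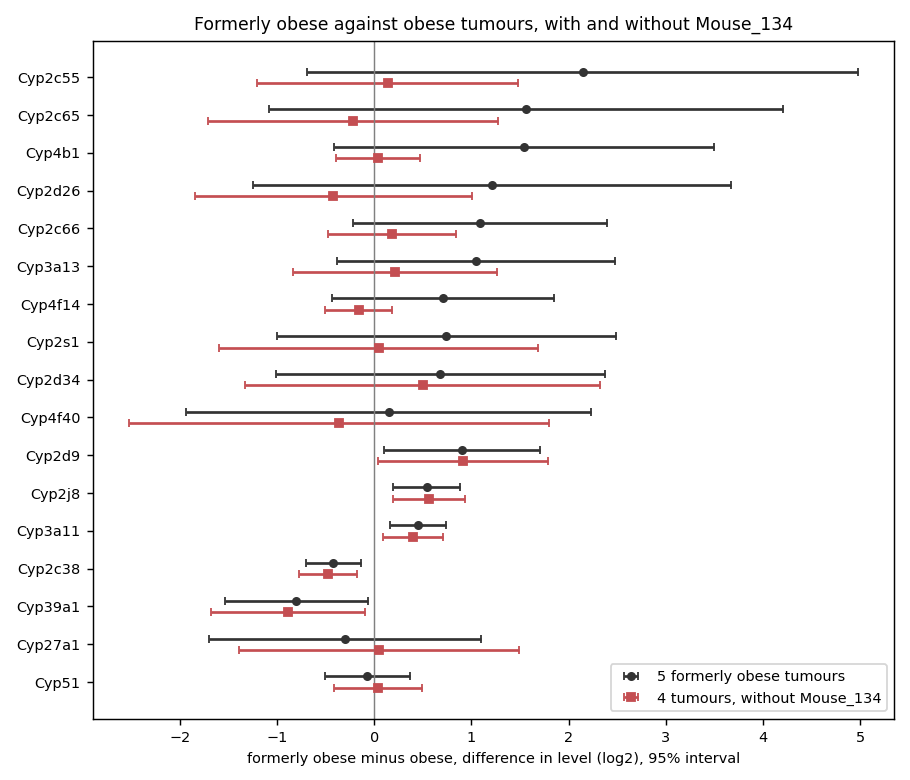
Difference between formerly obese and obese tumours (log2) with its 95% confidence interval for 17 P450 genes, with all 5 formerly obese tumours (circles) and without Mouse_134 (squares). Cyp2c55 moves from 2.14 to 0.14 and Cyp4b1 from 1.54 to 0.03, whereas Cyp2d9, Cyp2j8, Cyp3a11, Cyp2c38 and Cyp39a1 stay in place.

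Sulindac in obese mice was set against obesity alone. Again 0 of 98 members passed in limma, as did 0 of 22203 probe sets. Before adjustment 5 were below 0.05, against 6.55% of all probe sets, 3 of them higher (3.07% of probe sets) and 2 lower (3.48%). The median difference over the members was 0.020.

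Cyp2d9 had the smallest unadjusted p of all members in this comparison. It ran from 6.91 through a median of 8.42 to 9.08 in obese sulindac tumours, with 5 of 6 above the highest obese tumour (7.74). The difference was 1.32 ± 0.37 (limma p = 0.00175, adjusted p = 0.579, two-sided exact permutation p = 0.0195). Leaving out any 1 tumour of the 2 groups kept it between 1.12 and 1.60. Against controls, whose median of 7.68 lies between, neither sulindac nor formerly obese tumours were among the members with an unadjusted p under 0.05 for this gene.

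Cyp2b10, the classic target of the constitutive androstane receptor, ran from 8.13 through 9.22 to 10.88 in obese sulindac tumours. In obese tumours it was at 9.52, 6.68, 7.34, 7.34 and 6.88. All 6 sulindac tumours lay above 4 of the 5 obese tumours, and obese Mouse_96 lay within their range. The difference was 1.78 ± 0.66 (limma adjusted p = 0.698, two-sided exact permutation p = 0.0238), 2.27 without Mouse_96 and 1.47 without obese sulindac Mouse_114. Against controls, which ran from 6.62 to 9.98, sulindac tumours differed by 1.26 ± 0.63 (limma adjusted p = 0.766).

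Cyp2j9 lay higher by 0.48 ± 0.21, from 4.86 through 5.11 to 5.28 with sulindac against 4.27, 4.67, 4.91, 4.57 and 4.70 (limma adjusted p = 0.737), 5 of 6 sulindac tumours lying above every obese tumour. Cyp3a16, a family 3 gene known from the fetal and young liver, lay lower by -0.90 ± 0.35, from 4.02 through 4.61 to 4.90 against 4.38, 5.22, 6.05, 6.52 and 4.85 (limma adjusted p = 0.700). Cyp4f37 lay lower by -0.37 ± 0.17, from 4.71 to 4.85 with sulindac against 5.54, 4.71, 5.18, 4.85 and 5.47, so that 3 of 5 obese tumours lay above every sulindac tumour. In Cyp2a22, named here after its values were seen, the groups did not overlap, as for 1 of 98 members and 0.676% of all probe sets; sulindac tumours ended at 4.07 and obese tumours began at 4.08.

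In the secondary comparisons 0 members passed in limma as well, and 0 of 22203 probe sets did in each. Formerly obese against control tumours gave 5 members below 0.05 before adjustment, against 5.54% of probe sets, and 2 without Mouse_134 against 4.61%. Cyp3a11 was the first of them, at 4.87 ± 0.22 (SD, n = 5) against 4.45 ± 0.22 (SD, n = 6), a difference of 0.43 ± 0.13 (limma adjusted p = 0.758), and 0.38 ± 0.14 without Mouse_134. Obese sulindac against control tumours gave 3, against 6.63%. Cyp4f18, a leukotriene B4 hydroxylase known from mouse neutrophils, was first at 7.41 ± 0.70 (SD, n = 6) against 6.67 ± 0.59 (SD, n = 6), a difference of 0.75 ± 0.32 (limma adjusted p = 0.724). The neutrophil score, the mean of 8 markers, ran from 5.45 to 8.91 in those sulindac tumours and from 5.28 to 7.57 in controls, and its part in Cyp4f18 was not tested. Formerly obese against obese sulindac tumours gave 7, against 6.62%, and 5 without Mouse_134 against 5.68%. Among them was Cyp1a1, at 4.36, 4.39, 4.50, 3.97 and 3.89 in formerly obese tumours and 3.77 through 3.86 to 4.12 with sulindac, a difference of 0.33 ± 0.13 (limma adjusted p = 0.689), and 0.30 ± 0.14 without Mouse_134. Limma's F test over the 4 groups gave 0 members and 0 of 22203 probe sets at an adjusted p under 0.05. At an unadjusted p under 0.05 it gave 5 members, against 6% of probe sets.

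Among genes of carcinogen activation, Cyp2e1 stood out in 1 obese tumour. It was at 6.86 in obese Mouse_96 and at 4.30, 4.49, 4.31 and 4.55 in the other obese tumours, and reached at most 5.23 in the remaining groups. Its difference between obese and control tumours was 0.39 ± 0.37 and -0.10 without Mouse_96. That tumour also had the lowest absorptive colonocyte score, 8.84, and a hepatocyte score of 6.81 over 8 markers, second of 22, with Alb at 12.97 and Ttr at 12.92 but Fga at 4.54 and Fgb at 4.89, near their medians of 4.65 and 4.52 over all tumours. The hepatocyte score ran from 5.58 to 6.30 in control, 5.58 to 6.81 in obese, 5.23 to 7.15 in obese sulindac and 5.46 to 6.17 in formerly obese tumours, and its part in Cyp2e1 was not tested. Cyp1b1, which activates polycyclic hydrocarbons, was at 6.63 in obese Mouse_101 and at most 5.20 elsewhere, and Cyp2w1, known from colorectal tumours, was at 9.77 in control Mouse_20 and 7.29 in obese Mouse_107 but at most 6.16 in the other 20.

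Among genes of steroid, sterol and vitamin metabolism, Cyp51 was at 13.36 ± 0.40 in control (SD, n = 6), 13.52 ± 0.26 in obese (SD, n = 5), 13.74 ± 0.29 in obese sulindac (SD, n = 6) and 13.45 ± 0.36 in formerly obese tumours (SD, n = 5). These means lay within about 1 SD of each other, and the groups overlapped. Cyp27a1 had means of 10.98, 10.83, 10.90 and 10.53 in the same order, each with an SD of about 1 unit. Cyp7b1, an oxysterol hydroxylase, reached 7.92 in control Mouse_17 and 4.22 to 6.72 elsewhere. Of the 3 vitamin D genes, Cyp27b1, the activating hydroxylase, and Cyp24a1, the catabolic one, had obese minus control differences of -0.13 ± 0.17 and 0.09 ± 0.16, and none of the 3 had an unadjusted p under 0.05 in any main comparison. The same was true of the 3 retinoic acid hydroxylases and the 5 genes of steroid hormone synthesis.

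Genes that work with the P450 enzymes were followed in 7 lists, and 0 of their measured members passed in limma in any of the 6 comparisons. Over all 22203 probe sets, 0 passed in any of them either. The lists were the electron donors (5 measured of 7), receptors and factors that regulate P450 genes (13 of 14), targets of the aryl hydrocarbon receptor other than P450 genes (5 of 6), retinoid synthesis and response (9 of 10), vitamin D response (3 of 4), epoxide hydrolases (4 of 4) and steroid synthesis other than P450 genes (8 of 9). In obese against control tumours 1 of these had an unadjusted p under 0.05, against 4.03% of all probe sets. This was Nqo1, a quinone reductase, which differed by -1.19 ± 0.48, from 8.14 in control to 6.95 in obese tumours. Against the same obese arrays Nqo1 differed by 1.17 ± 0.48 with sulindac. There it was the 1 listed gene with an unadjusted p under 0.05, against 6.55% of all probe sets. In formerly obese against obese tumours, 5.69% of all probe sets had an unadjusted p under 0.05. Among the listed genes these were S100g, a calcium-binding target of vitamin D, and Arnt, the partner of the aryl hydrocarbon receptor. S100g differed by 3.30 ± 1.41 and Arnt by -0.27 ± 0.13. Without Mouse_134 these differences were 3.47 and -0.26. Cyb5a, the cytochrome b5 that feeds electrons to P450 enzymes, and Hnf4a, a regulator of liver and gut P450 genes, had no unadjusted p under 0.05 in any main comparison.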

How the data were processed

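Total RNA of 22 tumours was hybridised to Clariom S arrays, per the labels' protocols. The authors deposited log2 levels for 22203 probe sets; per the submitters' processing notes they used Transcriptome Analysis Console 4.0. How background was corrected and arrays normalized, and in which base the logs were taken, is not given in the sources used here, and base 2 was read from the range, 3.34 to 19.49. After such normalization a level is relative to the other levels of its array. Probe sets were named through the array's annotation (19572 with 1 symbol, 2631 unnamed here). All probe sets entered the fits, with no filter on dim signals.

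A mean per group was fitted to the 22 arrays with limma 3.58.1 in R 4.3.3 (lmFit, eBayes), with Benjamini-Hochberg adjustment over all probe sets, two-sided, called at 0.05; all groups share the estimate of the spread. The code was tested on simulated data. SDs are between tumours and values after ± beside a difference are standard errors. The titles number the mice separately, nothing pairs them and the labels give no batch. Exact permutation tests took single genes. Relations to the absorptive colonocyte score used 100000 permutations within groups (the smallest p they can give is 1e-05), adjusted over all probe sets outside the score in place of the P450 genes alone. Python 3.11.15 was used for these.

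The members, gene lists and markers were chosen with earlier results of these data known. Named genes were, in each main comparison, the 5 higher and 5 lower members with the smallest unadjusted p, 2 and 2 in each secondary comparison, 3 from the F test, the 12 with the highest mean, the 8 with the widest SD and 16 fixed members, 53 genes in all; any other member named was chosen after its values were seen. Alternatives were leaving out each tumour, 2-group fits, filters on low probe sets, other eBayes settings, array weights, 2 normalizations and gene means. Upstream sequences came from RefSeq on GRCm38.p6. Raw scans were not used here.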

Additional observations from a re-analysis of the deposited data

Results flagged for a closer look

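The 53 named members and 2 marker scores were examined in each of the 4 groups, 220 pairs in all. A tumour at the edge of its group stood apart by Dixon's criterion in 22 pairs (10%), none of them a score. Chance flags about 1 in 20 (5%), but some of these genes were named for their wide SD, so the share is raised by that choice and is not read against it. Formerly obese Mouse_134 was the highest of its group for Cyp2c55 (15.77), Cyp2c65 (15.20), Cyp2d26 (13.95), Cyp4b1 (12.06) and Cyp4f14 (8.83). Control Mouse_20 was the highest control for Cyp2c55 (8.76), Cyp2c65 (9.17), Cyp2d26 (9.55), Cyp2d12 (7.99) and Cyp2w1 (9.77). Control Mouse_26 was lowest for Cyp2a12 (3.82) and highest for Cyp4f14 (4.83) and Cyp8b1 (5.05), and control Mouse_32 was lowest for Cyp2j9 (4.34).

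In obese tumours, Mouse_96 was highest for Cyp2b10 (9.52) and Cyp2e1 (6.86) and lowest for Cyp11a1 (4.50), Mouse_101 was highest for Cyp1b1 (6.63) and Mouse_107 for Cyp2w1 (7.29). Obese sulindac Mouse_129 was highest for Cyp51 (14.32). Formerly obese Mouse_150 was highest for Cyp2d12 (8.11) and Mouse_146 lowest for Cyp4a10 (3.87).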

How the results depend on the processing

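Under every alternative run, including each tumour left out, 0 P450 genes passed in limma in the 6 comparisons and the F test, while the number with an unadjusted p under 0.05 ranged from 2 to 6 for obese minus control, 2 to 8 for formerly obese minus obese, 2 to 8 for obese sulindac minus obese, 0 to 8 for formerly obese minus control, 1 to 4 for obese sulindac minus control, 0 to 10 for formerly obese minus obese sulindac and 2 to 8 for the F test. With the lower 50% of probe sets left out, the median difference over the members still tested was 0.235 for obese sulindac minus control and -0.081 for formerly obese minus obese sulindac, against 0.020 and 0.022 with all; fewer members were tested there. The number of members related to the absorptive colonocyte score was 6, with 3 without Mouse_134, 1 without the 2 farthest tumours and 10 with group means not removed. Of 171 gene differences, 4 were counted as reversed when 1 tumour was left out. The count does not hold every change of sign. In formerly obese minus obese, the differences of Cyp27a1 and Cyp51 also turned from negative to slightly positive without Mouse_134. In formerly obese minus obese, leaving out each tumour gave -0.22 to 2.21 for Cyp2c65, -0.42 to 1.76 for Cyp2d26 and -0.16 to 0.96 for Cyp4f14, each lowest without Mouse_134. In obese minus control it gave -0.10 to 0.54 for Cyp2e1, lowest without Mouse_96. Of 42 gene comparisons named for their small limma p, 23 had an exact permutation p under 0.05 and 24 a limma p under 0.05, both unadjusted; the choice of genes sets how high these counts are. No paired analysis was possible because the mouse numbers are not shared between groups. Weak probe sets limit what can be said, since the deposited values give no signal over background.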
